A study of Mus musculus with 107 samples.

Results

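The voltage-gated sodium channel genes, the calcium channel genes with their auxiliary subunits and the HCN genes were followed through 24 labelled cell populations of mouse brain and spinal cord. Members were every gene whose symbol in the array annotation is Scn with a number and a or b, Cacna1 with a letter from a to i or s, Cacna2d1 to Cacna2d4, Cacnb1 to Cacnb4, Cacng1 to Cacng8 or Hcn with a number, and that had a probe set naming that gene alone. They numbered 37 of 18193 genes on the arrays: 8 sodium channel alpha subunits, 3 sodium channel beta subunits, 9 calcium channel alpha1 subunits, 4 alpha2delta subunits, 3 beta subunits, 8 gamma subunits and 2 HCN channels. The members had 87 probe sets, and 26 members had several. Each is shown by the 1 of its probe sets whose mean over all arrays was highest.

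A voltage-gated sodium channel is a large pore-forming alpha subunit joined by small beta subunits, and it carries the upstroke of the action potential. A voltage-gated calcium channel has an alpha1 subunit as its pore, which sets whether the current is of the L, P/Q, N, R or T type, with an intracellular beta subunit and an extracellular alpha2delta subunit that bring the channel to the membrane and tune its gating. The gamma genes are named after a subunit of the skeletal muscle calcium channel, but most of them encode transmembrane AMPA receptor regulatory proteins (TARPs), which accompany glutamate receptors to the synapse. HCN channels open on hyperpolarization, are gated by cyclic nucleotides and carry the pacemaker current.

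RNA came from translating ribosome affinity purification (TRAP): in bacterial artificial chromosome (BAC) transgenic mice a driver gene's regulatory DNA directs a tagged ribosomal protein to certain cells, and the tagged ribosomes are pulled from whole tissue with their mRNA. The 7 glial populations were astrocytes of cortex and cerebellum (driver Aldh1l1), Bergmann glia (Septin4), mature oligodendrocytes of cortex and cerebellum (Cmtm5) and mixed oligodendroglia of cortex and cerebellum (Olig2). The 17 neuronal populations were cortical neurons of layer 5a, layer 5b (Glt25d2) and layer 6 (Ntsr1), cortical Cort+, Cck+ and Pnoc+ neurons, Drd1+ and Drd2+ medium spiny neurons of striatum, cholinergic neurons of striatum, basal forebrain and spinal cord and motor neurons of brainstem (all Chat), and, in cerebellum, Purkinje (Pcp2), Golgi (Grm2), granule (Neurod1), unipolar brush (Grp) and stellate and basket neurons (Lypd6). Where a population's name carries its gene, that gene is the driver. Each population had 3 arrays, except cortical astrocytes with 4 and Purkinje neurons, from a pair of Pcp2 lines, with 6. The remaining RNA of a tissue after the pull-down, called unbound RNA, filled 9 arrays of cortex, 7 of cerebellum and 6 of striatum, with 3 of brainstem, 3 of spinal cord and 3 of basal forebrain. All mice carried a BAC transgene and no treatment is named. The age of the animals is not given in the sources used here. A population is defined by where its driver is active, so a line can label more than 1 cell type.

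Levels are log2 GCRMA intensities after a shift that equalizes spiked-in control probe sets between groups, with the SD over arrays. A level of 6 was the minimum for a gene to be examined. A difference was called at an adjusted p under 0.05 (limma, Benjamini-Hochberg over all genes tested) and at least 2-fold, in the same direction with the control scaling and with quantile normalization of all arrays. Printed differences are from the control scaling. Comparisons between populations also needed the gene's mean to be above that of unbound RNA, by any margin, in a population of the higher side. This is a weaker condition than a call against unbound RNA. GCRMA was run within each group of replicates, and the 30 sets of arrays normalized together were the 30 groups, so normalization set and group cannot be told apart. In a group, 2.7% to 64.9% of the members had the same value on every array, which is why some SDs are 0.00. In RNA pooled over a tissue or a labelled population, fewer cells of a type and less RNA per cell cannot be told apart. A gene's probe sets differ in binding, so levels are compared between groups for 1 gene and not between genes.

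Labels were checked against lists of marker genes. All 10 astrocyte markers in cortical astrocytes, 7 of 10 in cerebellar astrocytes and 8 of 10 in Bergmann glia lay at least 2-fold above unbound RNA, as did 7 of 9 myelin markers in cerebellar and 9 of 9 in cortical mature oligodendrocytes and 7 of 7 progenitor markers in both mixed oligodendroglia. In layer 5a neurons, 9 of 10 astrocyte markers also lay at least 2-fold above unbound cortex. Counts of markers 2-fold above unbound RNA use the control scaling. With it, all genes tested in layer 5a neurons had a median of 1.31 above unbound cortex, against 0.15 with quantile normalization. Of the 10 general neuronal markers, 8 to 10 reached 6 in each glial population, with a median level between 8.11 and 11.53 against 12.95 in unbound cerebellum and 13.17 in unbound cortex. None of the 10 was 2-fold above unbound RNA in a glial population. The part of RNA from other cells in the results was not tested.

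Of the 37 members, 31 reached a mean of 6 in a group and 30 reached it in a TRAP population. Neuronal populations held the highest level of 25 of those 30, and glial populations that of 5, with either scaling. The highest population was the same with both scalings for 19 of the 30 and another with quantile normalization for 11, each time a neuronal one: Cacna1a, Cacna1c, Cacna1d, Cacna1e, Cacna1h, Cacnb1, Cacng3, Cacng7, Scn2a, Scn2b and Scn3a. Highest levels in the text are those of the control scaling. Cacna2d2 and Scn2b were at 6 or above in all 24 populations. The genes that stayed under 6 in all groups were Cacna1f, Cacna1s, Cacng1, Cacng6, Scn10a and Scn11a, which are known chiefly from retina, skeletal muscle or peripheral sensory neurons, Cacng6 apart. Scn7a, known for sodium sensing rather than spikes, reached 6.04 ± 0.86 (SD, n = 3) in unbound spinal cord alone, with 2 arrays at 5.75 and 5.37 and the other above the minimum of 6.

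**Figure D1:**
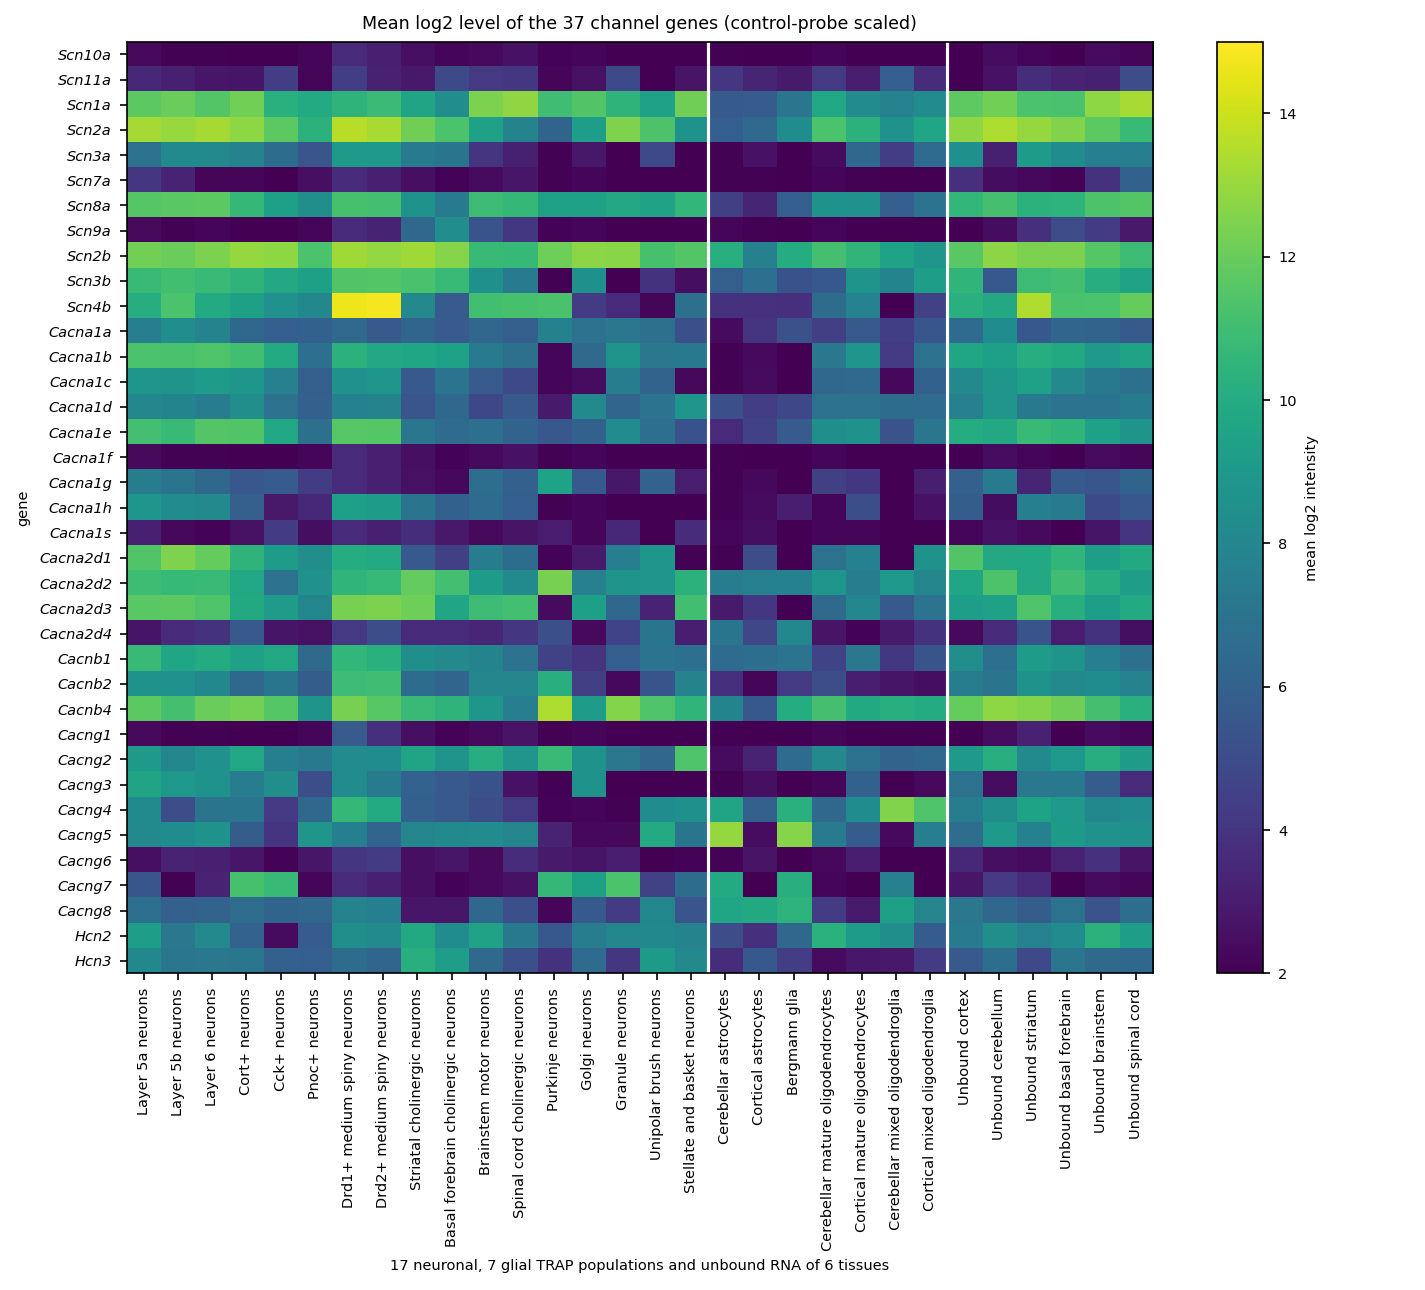
Mean log2 level (colour) of the 37 members (rows, by family) in 17 neuronal populations, 7 glial populations and 6 unbound tissues (columns), with white lines between the 3 classes. Cacng4, Cacng5 and Cacng8 have their brightest cells among the glia, while Cacna2d2 and Scn2b reach 6 in all 24 populations.

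Several of the sodium channel pore genes lie near each other. In the RefSeq table Scn3a is next to Scn2a on chromosome 2, Scn2a is separated from Scn1a by 3 genes (Csrnp3, Galnt3 and Ttc21b), and Scn9a and Scn7a follow directly. Scn2b and Scn4b are neighbours on chromosome 9. RefSeq promoter sequences (300 bases around a gene's start, GRCm38.p6) were found for 28 of the 37 members, 38 promoters in all. Those of Scn1a, Scn2a, Scn2b and Scn4b are shown because these neighbours, close on the chromosome, differed in opposite or unequal ways between populations, as given after the sequences. A search for 3 motifs, spelled out after the sequences, covered both strands, and a match is in capitals.
Scn1a, chr2:66440788-66441087, minus strand: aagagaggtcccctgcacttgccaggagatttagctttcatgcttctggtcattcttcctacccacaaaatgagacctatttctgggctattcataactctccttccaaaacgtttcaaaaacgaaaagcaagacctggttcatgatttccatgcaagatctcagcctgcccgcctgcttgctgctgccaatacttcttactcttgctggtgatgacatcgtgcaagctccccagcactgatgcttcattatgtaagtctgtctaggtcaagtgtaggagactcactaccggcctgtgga
Scn2a, first start, chr2:65620519-65620818, plus strand: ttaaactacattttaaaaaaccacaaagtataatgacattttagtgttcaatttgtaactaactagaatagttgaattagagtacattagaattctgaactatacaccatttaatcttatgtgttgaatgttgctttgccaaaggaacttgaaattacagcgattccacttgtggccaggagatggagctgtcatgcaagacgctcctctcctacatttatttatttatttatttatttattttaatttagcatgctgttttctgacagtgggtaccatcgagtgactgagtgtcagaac
Scn2a, second start, chr2:65668436-65668735, plus strand: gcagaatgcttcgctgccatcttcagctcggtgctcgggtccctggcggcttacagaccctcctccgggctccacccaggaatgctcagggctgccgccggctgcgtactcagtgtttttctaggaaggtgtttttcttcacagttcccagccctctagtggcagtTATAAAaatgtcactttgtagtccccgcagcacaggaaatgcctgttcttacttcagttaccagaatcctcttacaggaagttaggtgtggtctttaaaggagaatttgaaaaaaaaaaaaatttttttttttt
Scn2b, chr9:45117626-45117925, plus strand: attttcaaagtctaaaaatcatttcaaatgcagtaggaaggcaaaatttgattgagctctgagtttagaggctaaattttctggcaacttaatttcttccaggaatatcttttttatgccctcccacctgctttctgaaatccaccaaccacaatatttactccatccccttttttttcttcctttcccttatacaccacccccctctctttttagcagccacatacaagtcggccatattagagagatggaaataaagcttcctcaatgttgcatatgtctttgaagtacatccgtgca
Scn4b, chr9:45138374-45138673, plus strand: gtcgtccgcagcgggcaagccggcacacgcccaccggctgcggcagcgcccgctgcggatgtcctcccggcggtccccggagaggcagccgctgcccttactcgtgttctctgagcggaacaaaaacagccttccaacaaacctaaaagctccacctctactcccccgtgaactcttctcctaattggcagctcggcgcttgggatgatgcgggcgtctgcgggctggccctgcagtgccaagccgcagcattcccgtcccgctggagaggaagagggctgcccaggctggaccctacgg
TATAAA, the core promoter box, is in 13.6% of all 32851 promoters of this length and in 2 of the 38 member promoters, those of Cacna1d and the second Scn2a start. GGGCGG, the GC box, is in 35.7% of all and in 15 of the 38. CAGCTG, an E-box, is in 16.3% of all and in 13 of the 38. These letters are not in the Scn1a, Scn2b and Scn4b windows shown, which says nothing of any factor.

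Scn1a (Nav1.1), a pore known from fast-spiking neurons, and Scn2a (Nav1.2), a pore of unmyelinated axons and of principal neurons, ran opposite ways between cholinergic populations. Scn1a was at 12.74, 13.16 and 12.68 in spinal cord cholinergic neurons and at 13.16, 12.33 and 11.88 in brainstem motor neurons. It was at 9.78, 9.59 and 9.35 in striatal and at 8.17, 8.57 and 8.39 in basal forebrain cholinergic neurons. Every hindbrain and cord array lay above every forebrain array.
Scn2a was at 7.93, 8.61 and 6.85 in spinal cord cholinergic neurons and at 9.54, 9.38 and 9.38 in brainstem motor neurons. It was at 12.20 on all 3 striatal arrays and at 11.13, 11.13 and 11.71 in basal forebrain, so here every forebrain array was the higher. The difference of hindbrain and cord minus forebrain was 3.69 for Scn1a (12.66 against 8.97, adjusted p = 6.67e-31) and -3.15 for Scn2a (8.61 against 11.76, adjusted p = 3.41e-20). Neither gene was above unbound RNA on its higher side, as a call requires: unbound spinal cord was at 13.31 ± 0.30 (SD, n = 3) for Scn1a and unbound striatum at 12.94 ± 0.47 (SD, n = 6) for Scn2a. Without that requirement both passed, as did Scn8a, which was higher by 2.73 in hindbrain and cord, and Scn3a, which was lower there (-3.64).

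Scn1a, Scn2a, Scn3a and Scn8a were in no population called higher than in unbound RNA. Scn1a was highest among populations in spinal cord cholinergic neurons (12.86 ± 0.26, SD, n = 3), whose arrays overlapped those of brainstem motor neurons. Cort+ neurons followed at 12.24 ± 0.08 and stellate and basket neurons at 12.18 ± 0.14 (SD, n = 3 each). Scn2a was highest in Drd1+ medium spiny neurons (13.62 ± 0.17, SD, n = 3), with Drd2+ neurons and the 3 deep cortical layers between 13.02 and 13.31. Its lowest level in any neuronal population was that of Purkinje neurons, 6.20 ± 0.55 (SD, n = 6), where arrays ran from 5.11 through a median of 6.36 to 6.67, against 13.42 ± 0.37 (SD, n = 7) in unbound cerebellum. Granule neurons were at 12.46 ± 0.01 and unipolar brush neurons at 11.35 ± 0.00 (SD, n = 3 each). Against the mean of the other 4 cerebellar neuron types (10.43), Purkinje neurons were lower by a log2 difference of -4.23 (adjusted p = 5.41e-32), again without the requirement of TRAP over unbound RNA. Scn8a (Nav1.6), the pore of nodes and mature axon initial segments, was highest in layer 6 (11.73 ± 0.44), layer 5b (11.68 ± 0.10) and layer 5a neurons (11.59 ± 0.26; SD, n = 3 each), which did not differ beyond their spread. Scn3a (Nav1.3), prominent in development, was highest in Drd1+ neurons (9.04 ± 0.61, SD, n = 3).

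Scn9a (Nav1.7), best known from peripheral pain neurons, reached 6 in 2 of 24 populations, both cholinergic. Its arrays were at 8.43, 8.48 and 8.20 in basal forebrain cholinergic neurons and at 6.32 on all 3 in striatal cholinergic neurons. Unbound basal forebrain was at 4.98, and the difference of 3.39 (SE 0.07, adjusted p = 1.16e-58, at least 5.16-fold with the lower side set to 6) passed the test. Scn9a was the one sodium channel pore gene called above unbound RNA under both scalings in any of the populations compared, here and in striatal cholinergic neurons. Scn8a passed with control-probe scaling alone in layer 5b (1.06) and layer 6 neurons (1.11), and its difference was 0.53 and 0.62 after quantile normalization. In striatum the Scn9a difference was 2.56 (SE 0.06, adjusted p = 1.9e-54). Scn9a had 5 probe sets. Another of them followed the pattern of the one used across populations, with r = 0.99 over the 24 population means. The rest are not described here.

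**Figure D2:**
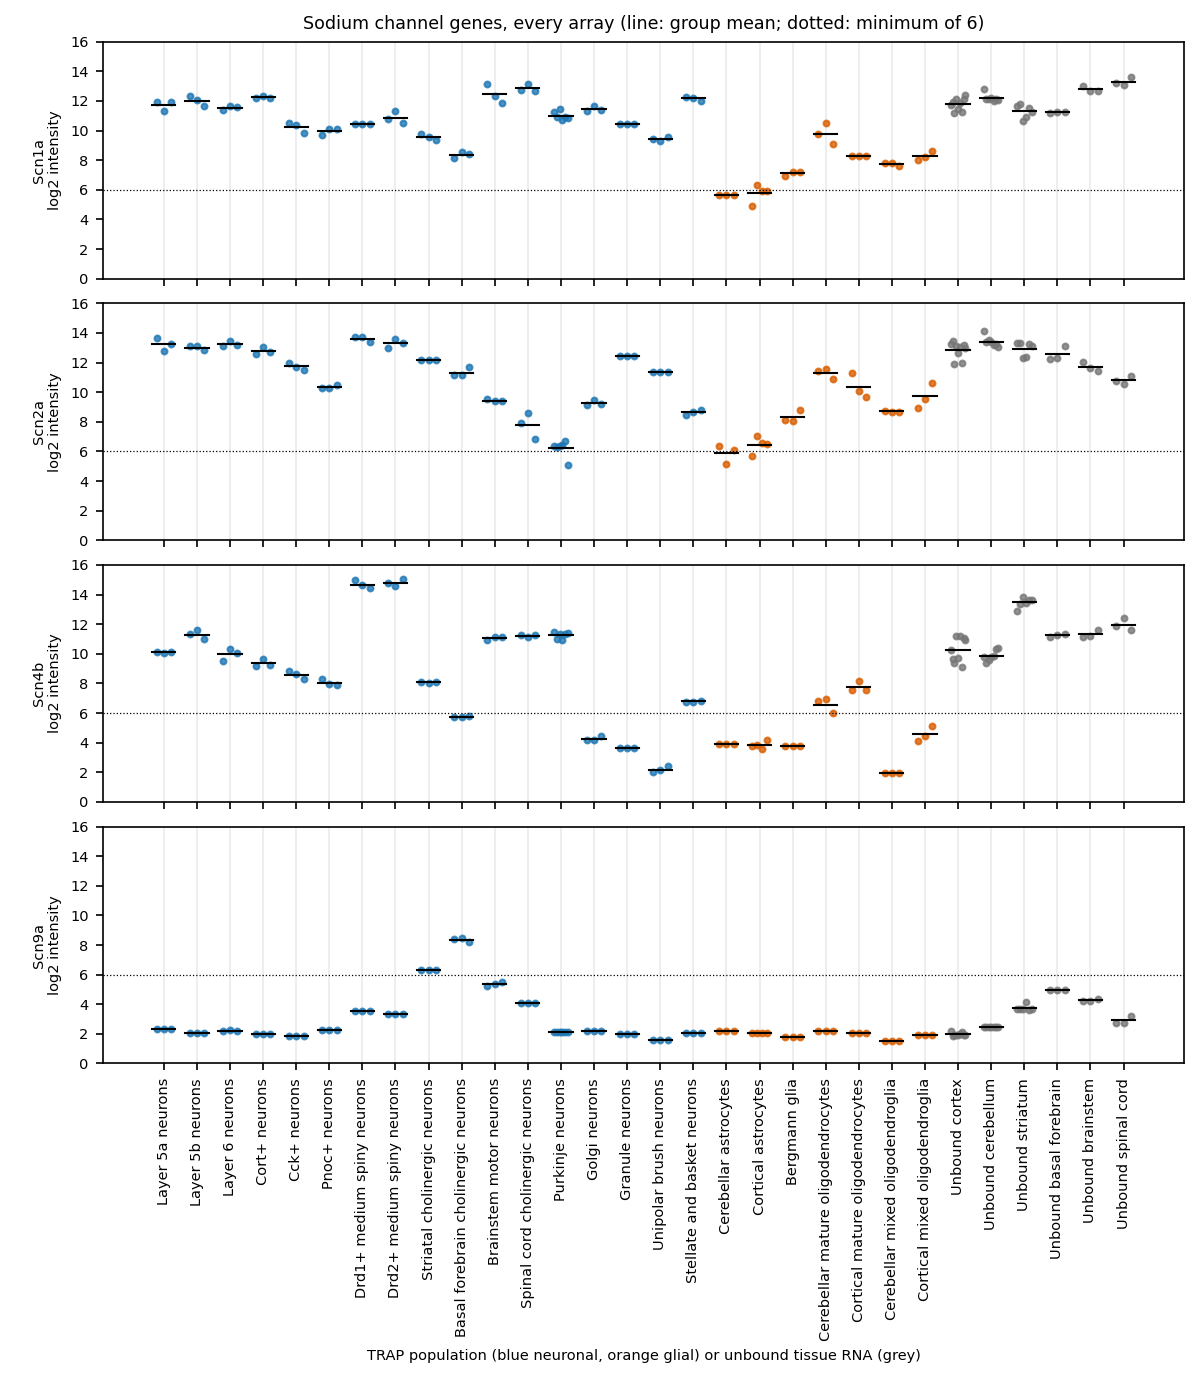
Log2 level of Scn1a, Scn2a, Scn4b and Scn9a on each array (points) and the group mean (line), with neurons in blue, glia in orange, unbound RNA in grey and the minimum of 6 dotted. Scn1a is high where Scn2a is low among the cholinergic groups, and Scn4b is highest in both medium spiny populations.

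The beta subunits shape gating and hold the channel to its neighbours. Scn4b (the beta4 subunit, linked to resurgent sodium current) was highest in striatal medium spiny neurons. Its arrays were at 14.96, 14.63 and 14.44 in Drd1+ and at 14.78, 14.58 and 15.06 in Drd2+ neurons, all above the unbound striatum, whose lowest, median and highest arrays were 12.92, 13.54 and 13.85. Drd1+ and Drd2+ arrays overlapped. In Drd2+ neurons the gain over unbound striatum was 1.33 (SE 0.26, adjusted p = 8.35e-06, 2.52-fold).
In the same tissue Scn4b was at 8.11, 8.06 and 8.11 in striatal cholinergic neurons. It was thus lower there than in medium spiny neurons by a log2 difference of -6.65 (SE 0.26, adjusted p = 2.72e-39, 100.2-fold). Basal forebrain cholinergic neurons were lower still, at 5.72, 5.72 and 5.77.
Purkinje neurons were the second site of Scn4b over unbound RNA. Their arrays ran from 10.94 through 11.35 to 11.46, against 9.87 ± 0.37 (SD, n = 7) in unbound cerebellum (difference 1.39, SE 0.20, adjusted p = 3.22e-09). The other 4 cerebellar neuron types had a mean of 4.22, and the difference to Purkinje neurons was 7.04 (SE 0.18, adjusted p = 1.59e-52, at least 33.3-fold), with no overlap of arrays.

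Scn2b was at or above 6 everywhere and highest in striatal cholinergic neurons (13.16 ± 0.03, SD, n = 3), which did not stand apart from Drd1+ neurons (13.12 ± 0.18, SD, n = 3). Its gains over unbound cortex in Cort+ (1.27, SE 0.21, adjusted p = 3.07e-07) and Cck+ neurons (1.15, SE 0.21, adjusted p = 1.27e-06) were its only calls in that direction, the latter lost against the Cck+ line's own unbound array (1.32). With quantile normalization Scn2b was highest in Golgi neurons. A second Scn2b probe set was only weakly like the first across populations (r = 0.13), so its pattern is uncertain. Scn3b was at 11.53 ± 0.16 in Drd2+ and 11.47 ± 0.13 in Drd1+ neurons (SD, n = 3 each). In cerebellum, where unbound RNA was at 5.56, Scn3b was at 8.08, 8.93 and 8.49 in Golgi neurons, 2.94 above unbound RNA (SE 0.22, adjusted p = 2.06e-21).

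The T-type pores among the alpha1 genes open near rest and support bursts. Cacna1g (Cav3.1) was highest in Purkinje neurons: arrays ran from 9.13 through 9.57 to 9.95, against 6.86, 7.39 and 7.68 as the lowest, median and highest of unbound cerebellum. These did not overlap, and the difference was 2.22 (SE 0.24, adjusted p = 3.38e-14, 4.67-fold). Cacna1g also lay 1.20 above unbound RNA in brainstem motor neurons (SE 0.35, adjusted p = 0.00199).
Cacna1h (Cav3.2) was highest in medium spiny neurons, with 9.74, 9.49 and 8.78 on the Drd1+ arrays and 9.19 on all 3 Drd2+ arrays. Unbound striatum ran from 6.98 through 7.73 to 8.17, below all of them. Cacna1h reached 6 in 8 populations, none of them glial or cerebellar, and was called higher than unbound RNA in 6 of those 8: layers 5a, 5b and 6, Drd1+, Drd2+ and brainstem motor neurons. Against unbound arrays of a population's own line the call in layer 5a was lost (2.17).

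**Figure D3:**
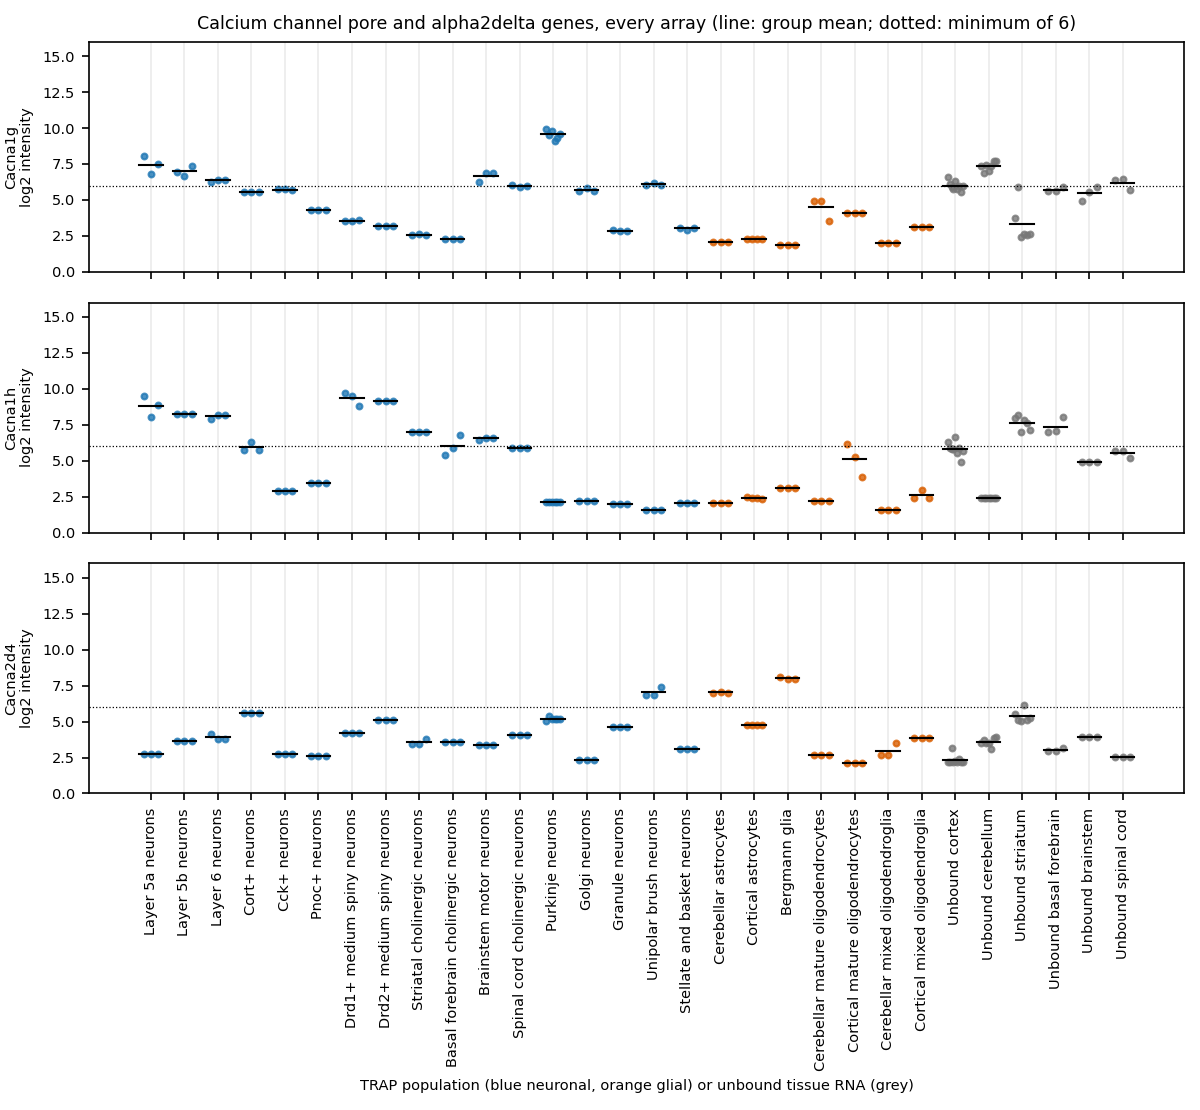
Log2 level of Cacna1g, Cacna1h and Cacna2d4 on each array (points) and the group mean (line), with neurons in blue, glia in orange, unbound RNA in grey and the minimum of 6 dotted. Cacna1g peaks in Purkinje neurons, Cacna1h in medium spiny and deep cortical neurons, and Cacna2d4 passes 6 in Bergmann glia, cerebellar astrocytes and unipolar brush neurons only.

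Of the pores of high-voltage channels, Cacna1b (Cav2.2, the N-type pore of presynaptic terminals) was highest in layer 6 (11.42 ± 0.58), with layers 5a (11.32 ± 0.78) and 5b (11.27 ± 0.21; SD, n = 3 each) within its spread, and lowest in Bergmann glia (1.81). It was called higher than unbound RNA in layer 5b, layer 6 and Cort+ neurons. Cacna1a (Cav2.1, the P/Q-type pore) was highest in layer 5b neurons (8.39 ± 0.09, SD, n = 3) and was called above unbound RNA there alone, by 1.84 (SE 0.15, adjusted p = 5.09e-19). With quantile normalization Cacna1a was highest in Golgi neurons (8.22, against 7.72 in layer 5b). Cacna1e (Cav2.3, R type) was highest in Drd1+ neurons (11.64 ± 0.20, SD, n = 3), level with Drd2+ neurons, and with quantile normalization in Cort+ neurons (11.50). The L-type pores Cacna1c (layer 6, 9.15 ± 0.43, SD, n = 3) and Cacna1d (stellate and basket neurons, 8.83 ± 0.15, SD, n = 3) were never called higher than unbound RNA. With quantile normalization Cacna1c was highest in Cort+ neurons (8.75, against 8.71 in layer 6) and Cacna1d in Golgi neurons (9.43, against 8.81).

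The alpha2delta genes, the family that binds gabapentin in its first members, were each highest in a different population. Cacna2d1 was highest in layer 5b (12.47 ± 0.53, SD, n = 3), Cacna2d2 in Purkinje (12.32 ± 0.40, SD, n = 6) and Cacna2d3 in Drd2+ neurons (12.44 ± 0.25, SD, n = 3). Their arrays overlapped those of the next population: layer 6, striatal cholinergic and Drd1+ neurons, in that order. None of these peaks was called above unbound RNA. Cacna2d3 was called above unbound RNA in 6 populations: layers 5a, 5b and 6, brainstem motor, spinal cord cholinergic and stellate and basket neurons.
Cacna2d4 was the one with its peak in glia. Its arrays were at 8.13, 7.97 and 7.97 in Bergmann glia, at 7.02, 7.05 and 7.02 in cerebellar astrocytes and at 6.87, 6.87 and 7.37 in unipolar brush neurons, against 3.10, 3.50 and 3.93 as the lowest, median and highest of unbound cerebellum. Cortical astrocytes were at 4.76 on all 4 arrays. The cerebellar TRAP arrays named all lay above unbound RNA, and those of astrocytes and unipolar brush neurons overlapped. In unipolar brush neurons the 10 astrocyte markers were all at 6 or above, with a median of 10.78 against 10.81 in unbound cerebellum, and 2 of the 10 were at least 2-fold above it.

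Beta subunits carry the alpha1 pore to the membrane. Cacnb2 was highest in Drd2+ (11.03 ± 0.01) and Drd1+ neurons (10.92 ± 0.30; SD, n = 3 each), followed by Purkinje neurons at 9.91, 10.11 and 10.35 (lowest, median and highest). It was called above unbound RNA in these 3 populations. Cacnb4, mutated in the lethargic mouse, was highest in Purkinje neurons (13.17, 13.47 and 13.52), yet nowhere called above unbound RNA. Cacnb1 was highest in layer 5a neurons (10.82 ± 0.14, SD, n = 3), whose arrays overlapped those of Drd1+ neurons (10.02 to 10.91). With quantile normalization Drd2+ and Drd1+ neurons (both 10.03) and Cck+ neurons (9.95) lay above layer 5a (9.80). The Cacnb1 pattern is uncertain too: its probe sets were only partly alike (r = 0.49 for 1 of them).

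Of the 5 members with their highest level in glia 3 were gamma genes. Cacng4 (TARP gamma-4) was at 12.60, 12.64 and 12.33 in cerebellar and at 11.36, 11.62 and 11.23 in cortical mixed oligodendroglia. It was at 6.38 on all cerebellar and 8.31 on all cortical arrays of mature oligodendrocytes. Mixed oligodendroglia were thus above mature oligodendrocytes in both tissues with no overlap, by 6.14 in cerebellum (SE 0.22, adjusted p = 2.98e-42, 70.5-fold) and 3.10 in cortex (SE 0.22, adjusted p = 1.77e-22, 8.57-fold).
Cacng5 (TARP gamma-5) set cerebellar from cortical astroglia. It was at 12.99, 12.90 and 12.95 in cerebellar astrocytes and at 12.54, 12.73 and 12.72 in Bergmann glia. It was at 2.50, 2.35, 2.41 and 2.47 in cortical astrocytes, where the unbound cortex was at 6.64 ± 0.56 (SD, n = 9). Unipolar brush neurons were next among the cerebellar populations at 9.71, 10.04 and 10.09, where the astrocyte markers stood at the levels given above.
Cacng8 (TARP gamma-8, known from hippocampal AMPA receptors) was high in all 3 astroglial populations: 10.41 ± 0.10 (SD, n = 3) in Bergmann glia, 9.93, 9.72, 10.37 and 9.48 in cortical astrocytes and 9.67 ± 0.02 (SD, n = 3) in cerebellar astrocytes. Each was called above its unbound tissue. Cacng8 and Cacng7 are neighbours on chromosome 7, and Cacng4 and Cacng5 on chromosome 11.

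Cacng7 (TARP gamma-7) rests on 1 probe set, because a second probe set of this gene reached 6 nowhere (highest 3.86, in Golgi neurons). With all its means under that minimum, its r of -0.22 with the first across populations cannot show an opposite pattern. Results on Cacng7 are therefore uncertain, and counts without it are given in the closing section. By the probe set used it was at 11.54, 11.17 and 11.17 in granule neurons, 11.48, 10.91 and 11.19 in Cort+ neurons and 10.40, 10.93 and 10.93 in Cck+ neurons. Unbound cerebellum ran from 4.03 through 4.03 to 5.03, and unbound cortex from 1.87 through 1.87 to 6.01, below all of these.
Cacng2 (stargazin), which traffics AMPA receptors in cerebellar granule neurons, was highest in stellate and basket neurons (11.42 ± 0.20, SD, n = 3). In granule neurons Cacng2 was called lower than in unbound cerebellum. Cacng3 was highest in layer 5a neurons (9.61 ± 0.07, SD, n = 3), but with quantile normalization in Golgi neurons (9.83, against 8.41 in layer 5a). In cerebellum it was at 8.69, 8.07 and 9.25 in Golgi neurons, with means from 1.57 to 2.10 in the other cerebellar neurons.

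**Figure D4:**
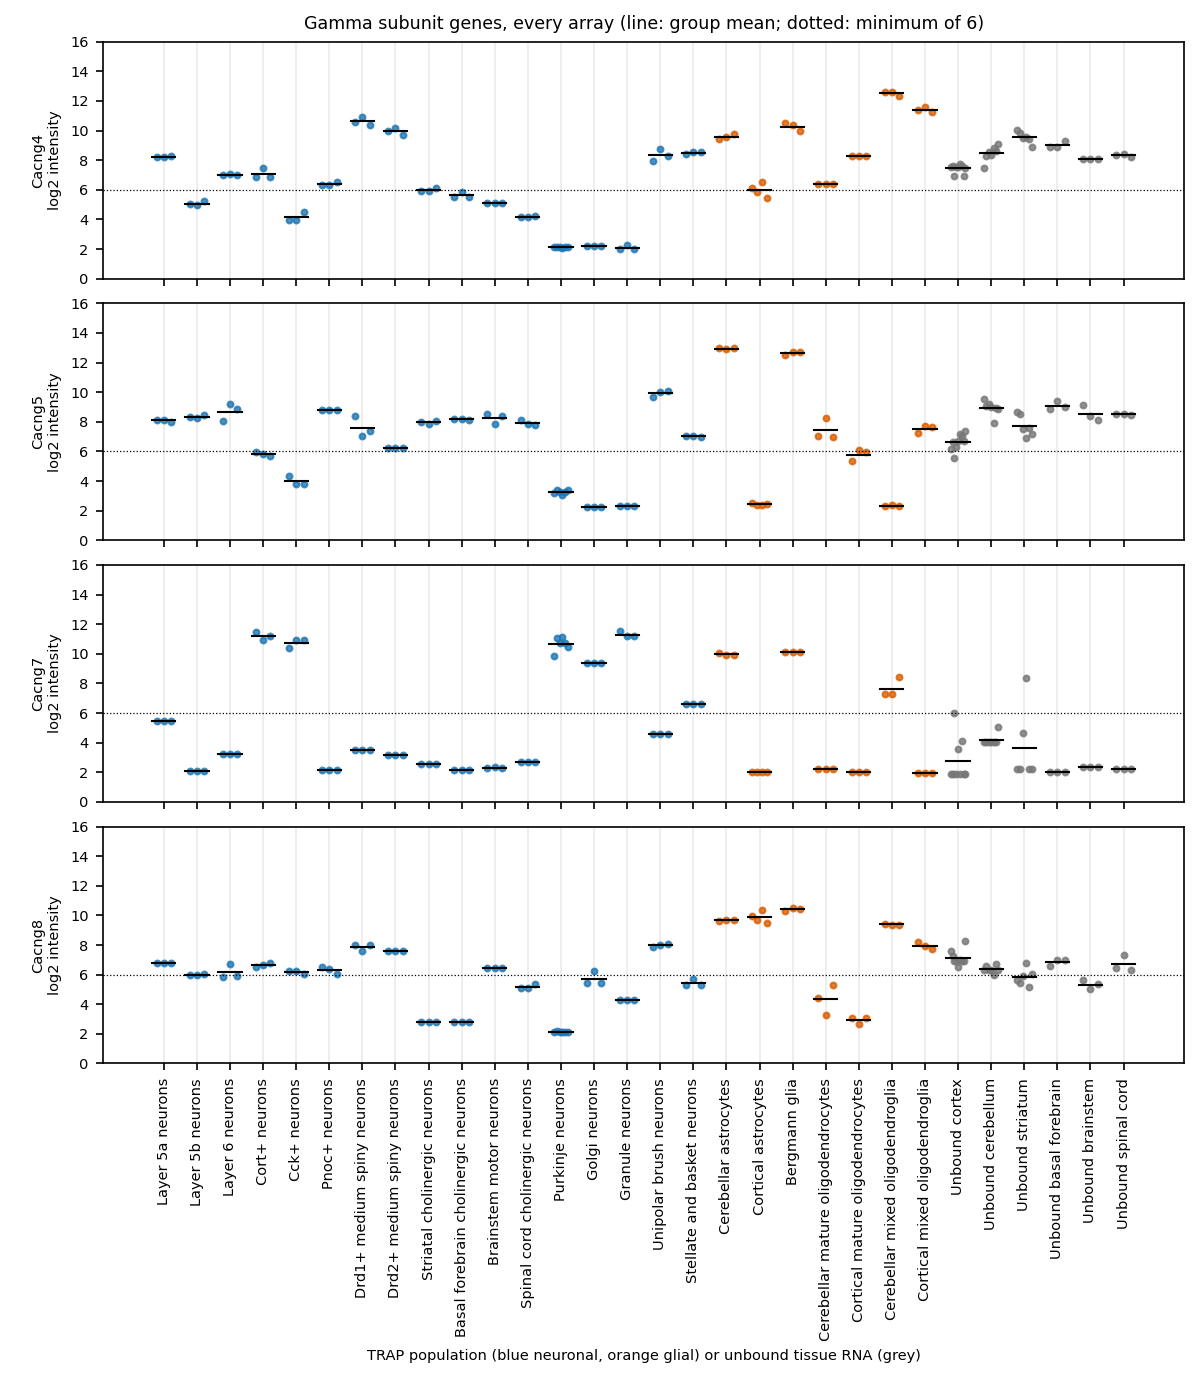
Log2 level of Cacng4, Cacng5, Cacng7 and Cacng8 on each array (points) and the group mean (line), with neurons in blue, glia in orange, unbound RNA in grey and the minimum of 6 dotted. Cacng4 peaks in mixed oligodendroglia, Cacng5 in cerebellar astrocytes and Bergmann glia but not cortical astrocytes, and Cacng8 in all 3 astroglial populations.

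The HCN channel genes described here are Hcn2 and Hcn3. Hcn3 was highest in striatal cholinergic neurons, at 10.29, 10.12 and 10.11, while unbound striatum ran from 4.59 through 4.86 to 5.19. That gain over unbound RNA, 5.32 (SE 0.17, adjusted p = 1.28e-45, at least 18.1-fold), was larger than any other called gain of Hcn2 or Hcn3. Basal forebrain cholinergic neurons were at 9.05, 9.05 and 9.74 and unipolar brush neurons at 9.10 on all 3 arrays. Hcn3 was called above unbound RNA in 9 of 19 populations tested, all neuronal, and lost that call in layer 5a (1.76), layer 6 (1.00) and Drd1+ neurons (1.48) against the unbound arrays of their own line.
Hcn2 had its highest TRAP level in mature oligodendrocytes of cerebellum, at 10.04, 9.46 and 11.36, against 7.93, 8.39 and 9.18 as the lowest, median and highest of unbound cerebellum. In cortical mature oligodendrocytes it was at 9.48, 8.86 and 9.14, against 6.63, 7.49 and 7.71 in unbound cortex. Neither pair overlapped, and the gains were 1.84 (SE 0.41, adjusted p = 3.67e-05) and 1.77 (SE 0.39, adjusted p = 4.87e-05). The 10 neuronal markers had a median of 10.67 and 11.53 in these populations, and none was 2-fold above unbound RNA.
Mixed oligodendroglia were lower in Hcn2, at 8.53, 8.48 and 8.42 in cerebellum and 5.78 on all 3 arrays in cortex. The difference of mixed minus mature was -1.81 in cerebellum (SE 0.48, adjusted p = 0.000645) and -3.38 in cortex (SE 0.48, adjusted p = 2.81e-09). Striatal cholinergic neurons, at 9.91, 9.91 and 9.86, had Hcn2 2.15 above the 6 unbound striatum arrays (SE 0.42, adjusted p = 3.77e-06). The unbound arrays of the cholinergic line itself were at 9.97 and 9.76, level with its TRAP arrays, and those of the Drd1+ and Drd2+ lines lay between 6.45 and 6.87. Against its own line alone the Hcn2 difference was 0.03 (adjusted p = 0.956, limma) and the call was lost, while Hcn2 in Drd2+ neurons then passed (1.53). Unbound brainstem had the highest Hcn2 of any group, 10.35 ± 0.91 (SD, n = 3).

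**Figure D5:**
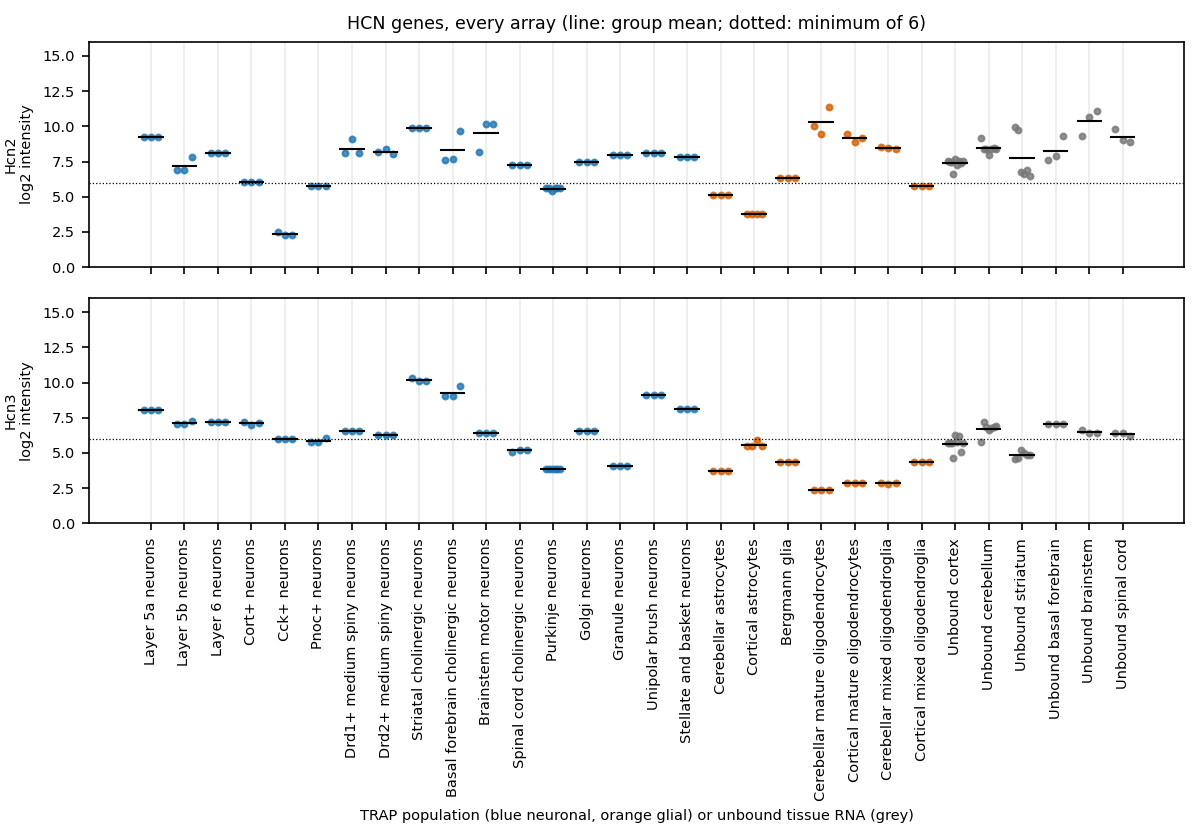
Log2 level of Hcn2 and Hcn3 on each array (points) and the group mean (line), with neurons in blue, glia in orange, unbound RNA in grey and the minimum of 6 dotted. Hcn2 is higher in mature oligodendrocytes than in mixed oligodendroglia, and Hcn3 peaks in striatal and basal forebrain cholinergic neurons.

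TRAP and unbound RNA were compared in each population. Over 603 pairs of a member and a population, 85 were called higher in TRAP RNA and 249 lower, where 14.3% and 20.9% of all 240884 such tests of genes were called. A member enters where it reaches 6 in the population or its unbound tissue, so one that is high on 1 side only had to differ. The 31 unbound libraries are shared, and populations of 1 tissue are compared with the same arrays. In 14 populations, 1 to 3 of these arrays came from the population's own line. Against those alone, a comparison chosen after seeing the data, 37 of their 52 called gains were called again, with 45 called in all, and 117 of their 139 losses, with 133 in all. Gains that lost their call are named with the population, except in layer 5b neurons, where only the count is given.

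In glia the members were mostly lower than in unbound RNA. In cortical astrocytes 23 of 24 members were called lower, where 29.7% of all genes were, and 1, Cacng8 (2.74), higher, where 31.4% were. The largest losses there were Scn8a (-7.29), Cacna1b (-7.27) and Cacna2d1 (-6.43). In cerebellar astrocytes 19 of 25 were lower (31.2% of all genes) and 5 higher (16.4%). The gains were led by Cacng7 (5.80), Cacng5 (4.02) and Cacna2d4 (3.45), and the losses by Cacng2 (-7.82), Cacna2d1 (-7.80) and Scn2a (-7.54). In Bergmann glia 18 of 25 were lower (29.2%) and 5 higher (19.6%). Cacng7 (5.96), Cacna2d4 (4.44) and Cacng8 (4.04) gained most, and Cacna2d1 (-8.05), Cacna2d3 (-7.63) and Cacna1b (-7.52) lost most. The count of losses was well above the share of all genes in these 3 populations, and the count of gains was near it in both cerebellar ones.

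In oligodendroglia the pattern differed between mature and mixed cells. In cerebellar mature oligodendrocytes 18 of 23 were lower (26.5%) and Hcn2 alone was higher (8.42%). The largest losses were Hcn3 (-4.30), Cacna1a (-3.83) and Scn4b (-3.29). In cortical mature oligodendrocytes 14 of 24 were lower (23.6%), most of all Cacnb2 (-4.41), Cacng8 (-4.19) and Cacna2d1 (-3.76), and Hcn2 alone was higher (15.7%). In cerebellar mixed oligodendroglia 20 of 25 were lower (28.3%), with Cacna2d1 (-8.31), Scn4b (-7.91) and Cacng5 (-6.61) at the top. The 4 called higher there (17.8% of all genes) were led by Cacng4 (4.07), Cacng7 (3.48) and Cacng8 (3.02). In cortical mixed oligodendroglia 21 of 24 were lower (20.6%), led by Scn4b (-5.71), Cacnb2 (-5.02) and Cacng3 (-4.57), and Cacng4 alone was higher (3.96, where 28.6% of all genes were). The neuronal markers in these populations are given above.

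Cacna1h alone was among the 3 largest gains in each of the deep cortical layers. In layer 5a neurons 5 of 27 members were called higher, where 24.2% of all genes were, led by Cacna1h (2.97), Cacng3 (2.70) and Cacnb1 (2.40). In layer 5b neurons 6 of 27 were higher (18% of all genes), led by Cacna2d3 (2.42), Cacna1h (2.41) and Cacng3 (2.04). In layer 6 neurons 7 of 27 were higher (15%), led by Cacna1h (2.27), Cacna2d3 (2.10) and Cacng5 (2.05). These shares are near the background, above it most in layer 6. Against the 1 unbound array of each line, layer 5a neurons kept 1 of their 5 gains, losing Cacna1h (2.17), Cacng3 (0.92), Cacnb1 (1.74) and Hcn3. Layer 5b neurons kept 5 of 6, and layer 6 neurons 3 of 7, losing Cacng5 (1.62), Cacng3 (1.52), Cacnb1 (1.40) and Hcn3. Cort+ neurons had 5 of 26 higher (10.2%), led by Cacng7 (8.42), Hcn3 (1.46) and Cacna1b (1.42). Cck+ neurons had 4 of 25 higher (14.5%), led by Cacng7 (7.98), Cacng3 (1.54) and Cacnb1 (1.33), the last pair with overlapping arrays. Pnoc+ neurons had 1 of 24 (2.92%), Cacng5 (2.16).

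In striatum, Drd1+ neurons had 5 of 26 members higher (15.3% of all genes), led by Cacnb2 (2.29), Cacng8 (2.00) and Hcn3 (1.72). Drd2+ neurons had 6 of 25 (14.7%), led by Cacnb2 (2.40), Cacng8 (1.75) and Cacna1h (1.57). Striatal cholinergic neurons had 5 of 26 (21.9%), led by Hcn3 (5.32), Scn9a (2.56) and Hcn2 (2.15). Against the 2 unbound arrays of the cholinergic line Hcn2 (0.03) and Cacng2 (0.75) lost their call. Against those of the Drd1+ line Drd1+ neurons kept 2 of 5, losing Cacng8 (1.49), Hcn3 and Cacnb1 (1.58). Basal forebrain cholinergic neurons had 2 of 27 (7.91%), Scn9a (3.39) and Hcn3 (2.20). Brainstem motor neurons had 4 of 26 (9.03%), led by Cacna2d3 (1.67), Cacna1h (1.63) and Cacna1g (1.20). Spinal cord cholinergic neurons had 1 of 25 (5.38%), Cacna2d3 (1.18).

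In cerebellum, Purkinje neurons had 4 of 24 members higher (13.5% of all genes), led by Cacng7 (6.48), Cacnb2 (3.15) and Cacna1g (2.22). Golgi neurons had 3 of 26 (4.41%): Cacng3 (6.23), Cacng7 (5.20) and Scn3b (2.94). Granule neurons had 1 of 24 (5.25%), Cacng7 (7.12). Unipolar brush neurons had 4 of 24 (12.1%), led by Cacna2d4 (3.45), Hcn3 (2.39) and Cacng8 (1.62). Stellate and basket neurons had 4 of 24 (9.26%), led by Cacng7 (2.43), Cacna2d3 (1.62) and Hcn3 (1.41).

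Neurons as a class were set against glia as a class, with populations weighted equally. Of 30 members tested, 22 were higher in neurons and 2 in glia, where 20.3% and 20.4% of all genes were called. The median difference of the members was 2.27, against 0.09 over all genes tested. The 8 largest were Cacna2d3 (4.44), Scn4b (4.26), Cacnb2 (3.98), Cacna1b (3.90), Scn8a (3.89), Scn1a (3.47), Cacng3 (3.22) and Hcn3 (3.15), with SEs from 0.06 to 0.11 and adjusted p at most 6.16e-45. Higher in glia were Cacng4 (-3.16, SE 0.07, adjusted p = 3.3e-59) and Cacng8 (-2.14, SE 0.09, adjusted p = 6.88e-39). Cacna1d, Cacna2d4, Cacng5, Cacng7, Hcn2 and Scn9a were not called. With a gene's probe sets averaged, Cacng8 (-0.90), Cacna2d2 (0.90) and Scn3a (1.13) were not called. Arrays of both classes overlapped for every called member. These p-values measure replicate spread within populations, not the spread between populations.

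Genes that bind or organize these channels were listed too: the intracellular FGFs, ankyrins and spectrins of the axon initial segment, calcium-binding regulators and the leak channel complex. Of 30 listed, 26 were on the arrays and 24 were tested between neurons and glia. Higher in neurons were 16, led by Cabp1 (4.02), a calcium sensor of calcium channels, Sptbn4 (3.59), the spectrin of initial segments and nodes, and Nalcn (3.29), the sodium leak channel. Ank2 alone was higher in glia (-1.46), and 7 were not called. Of all 12309 genes tested, 2493 were called higher in neurons and 2515 in glia. Unc80 of the leak channel complex was not called, though its control-scaling difference was 2.86 (adjusted p = 8.75e-40, limma).

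Purkinje neurons, which fire spontaneously and make P-type calcium current, were set against the other 4 cerebellar neuron types. Of 18 members tested 7 were higher and 7 lower, where 20.6% and 22.7% of all genes were called. After Scn4b, given above, the higher ones were Cacna1g (5.15, SE 0.21, adjusted p = 6.35e-38), Cacnb2 (5.15, SE 0.18, adjusted p = 3.82e-43), Cacna2d2 (3.44, SE 0.23, adjusted p = 2.59e-24), Cacng7 (2.69), Cacnb4 (2.50) and Cacng2 (2.40). All but Cacng7 and Cacng2 had no overlap of arrays. Cacna2d2, Cacnb4 and Cacng2 were not called above unbound cerebellum in Purkinje neurons. Both directions held a calcium channel pore, an alpha2delta and a sodium channel beta subunit, while the calcium channel beta subunits called were higher. Lower were Cacna2d3 (-5.10), Cacna1d (-4.64), Cacng8 (-3.70), Cacng4 (-3.16), Hcn3 (-3.07), Scn3b (-2.13) and Cacng3 (-1.47). Cacng7 lost its call with its probe sets averaged (1.18). The median over members was -0.60, against 0.14 over all genes. Without the requirement of TRAP over unbound RNA, Cacna1a was also higher by 1.19, and Cacna1b (-5.22), Cacna2d1 (-3.24), Cacna1c (-2.42) and Hcn2 (-2.27) were also lower.

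Golgi neurons were set against stellate and basket neurons, both inhibitory. Of 10 members 4 were higher in Golgi neurons (8.67% of all genes) and 3 lower (20.5%). Higher were Cacng3 (6.64, SE 0.35, adjusted p = 7.84e-31), Scn3b (6.01, SE 0.26, adjusted p = 1.12e-35), Cacng7 (2.77) and Scn2b (1.23). Lower were Cacng4 (-6.31, SE 0.22, adjusted p = 5.14e-43), Cacnb2 (-3.32) and Cacng2 (-2.72). Beside Cacng4, 4 of 7 oligodendrocyte progenitor markers lay at least 2-fold above unbound RNA in stellate and basket neurons and none in Golgi neurons, with control scaling. With that scaling, the median of all genes against unbound cerebellum was -0.61 in stellate and basket and -1.96 in Golgi neurons. With quantile normalization it was 0.02 and -0.11. The part of progenitors in the stellate and basket RNA was not tested. The median of all genes moved from -1.16 with control scaling to -0.08 with quantile normalization, and that of the members from -1.09 to 0.24. With control scaling alone 4 members were higher and 5 lower, and without the requirement of TRAP over unbound RNA 5 of 22 were higher and 6 lower. Scn2b was lower, not higher, in Golgi neurons when its probe sets were averaged (-0.51), and Cacng2 then lost its call (-2.30).

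Granule and unipolar brush neurons, both excitatory cells of the granular layer, differed in 5 of 6 members tested. Cacng7 was higher in granule neurons (6.73, SE 0.66, adjusted p = 1.26e-15; 15.5% of all genes were). Lower were Cacng5 (-7.64, SE 0.31, adjusted p = 1.11e-38), Hcn3 (-5.03, SE 0.19, adjusted p = 7.7e-40), Cacng8 (-3.68) and Cacna2d4 (-2.41), where 30.1% of all genes were lower. The 6 tested are those above unbound RNA in a compared population. Without that requirement 8 of 23 members were higher in granule neurons and 7 lower. The higher ones then included Cacna2d3 (3.11), Cacna1b (1.55) and Scn2b (1.49), and the lower ones Cacng4 (-6.24) and Cacna1g (-3.22).

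Medium spiny neurons were set against deep-layer cortical neurons. Of 26 members 4 were higher (11.6% of all genes) and 4 lower (18.9%). Higher were Scn4b (14.74 against 10.45, difference 4.29, SE 0.19, adjusted p = 7.11e-35), Cacng4 (3.52, SE 0.14, adjusted p = 1.69e-38), Cacnb2 (2.55) and Cacng8 (1.41). Lower were Cacna1g (-3.58, SE 0.23, adjusted p = 1.25e-25), Cacna2d1 (-1.97), Cacna1a (-1.89) and Cacna1b (-1.25). Arrays overlapped for Cacna1b alone, whose call was lost without the first layer 5a array (differences with an array left out from -1.39 to -1.13). With no further scaling Cacng4 (2.44) and Cacng8 (0.33) lost their call, and with probe sets averaged Cacna2d1 (-1.67) and Cacna1b (-0.98) did. The other 18 were not called. With control scaling alone the split was 4 higher and 8 lower, and with quantile normalization alone 6 and 4. The median was 0.03 over members and -0.23 over all genes.

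Drd1+ and Drd2+ medium spiny neurons, of the direct and indirect striatal pathways, had no called difference among 21 members (limma), where 2.85% of all genes were higher in Drd1+ and 0.928% in Drd2+ neurons. Differences ran from -0.20 to 0.87. At an unadjusted p under 0.05, 3 members passed with control scaling (Cacna1a, Cacng3 and Cacng4) and 1 with quantile normalization. At an adjusted p under 0.05, 2 passed with control scaling, under the 2-fold limit, and 0 with quantile normalization. All genes had a median difference of 0.37 with control scaling and 0.00 with quantile normalization.

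Striatal cholinergic interneurons, tonically active cells, were set against medium spiny neurons of the same tissue. Of 23 members 6 were higher (20.9% of all genes) and 11 lower (26.8%). Higher were Hcn3 (difference 3.76, SE 0.17, adjusted p = 3.09e-35, 13.5-fold), Scn9a (2.89, SE 0.06, adjusted p = 1.17e-58), Hcn2 (1.59), Cacng2 (1.26), Cacna2d2 (1.26) and Cacng5 (1.04). Hcn2 and Hcn3 thus both lay on the cholinergic side, Hcn2 with the unbound RNA of that line as high as its TRAP RNA, as given above. Lower, after Scn4b, were Cacng8 (-4.94), Cacna1e (-4.51, SE 0.24, adjusted p = 1.94e-30, 22.8-fold), Cacnb2 (-4.37), Cacng4 (-4.31), Scn8a (-2.52), Cacna1d (-2.35) and Cacna1h (-2.26). Cacnb1, Cacng3 and Scn2a were the other 3. Arrays overlapped for Cacng5 alone among the 17. The call of Cacng3 was lost on leaving out the first or second cholinergic array, the first or second Drd1+ array or the first Drd2+ array (differences from -2.02 to -1.55). That of Cacng5 was lost without the second or the third Drd1+ array (0.90 to 1.23). Cacna2d2 was lower instead when its probe sets were averaged (-0.17), and Cacna1h (-1.67) and Cacnb1 (-1.13) then lost their call. The median was -1.27 over members and -0.51 over all genes.

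Cholinergic neurons of hindbrain and cord, largely motor neurons by their labels in brainstem, were set against those of forebrain. Of 15 members 3 were higher in hindbrain and cord (13.9% of all genes): Cacna1g (3.91, SE 0.25, adjusted p = 1.16e-25), Cacng8 (3.03) and Cacnb2 (1.52). Lower were 5 (18.1%): Hcn3 (-3.91, SE 0.14, adjusted p = 9.41e-43, at least 11.3-fold), Scn3b (-3.10), Cacna2d2 (-2.82), Scn9a (-2.60) and Scn2b (-2.17). Arrays of these 8 did not overlap between sides. The median was -0.30 over members and -0.32 over all genes. Without the requirement of TRAP over unbound RNA, Scn4b (4.24) and Cacna2d1 (1.99) were also higher, and Cacna1b (-2.45), Cacnb4 (-2.40) and Cacng3 (-1.87) also lower, beside the sodium channel pores given above.

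Layer 5b and layer 6 neurons differed in 1 of 23 members: Scn4b, at 11.31, 11.59 and 10.98 in layer 5b and 9.48, 10.34 and 10.07 in layer 6. The arrays did not overlap and the difference was 1.33 (SE 0.30, adjusted p = 0.000258). Of all genes 7.7% were higher and 4.35% lower in layer 5b, and the members' counts did not exceed those shares. With quantile normalization alone 1 member was higher and 1 lower. Medians were -0.04 over members and 0.11 over all genes.

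Cort+ neurons, chiefly interneurons, were set against the deep layers. Of 26 members 2 were higher (4.33% of all genes), Cacng7 (7.60) and Cacng2 (1.22), and 7 lower (17%). Lower were Cacng5 (-2.56, SE 0.25, adjusted p = 3.01e-15), Cacna1h (-2.47, SE 0.23, adjusted p = 2.18e-16), Hcn2 (-2.13), Cacnb2 (-2.02), Cacna2d3 (-1.68), Cacng3 (-1.62) and Cacna2d1 (-1.50). The call of Cacna2d1 was lost without the second Cort+, the third layer 5a or the first or second layer 5b array (-1.60 to -1.44), and that of Cacng3 without the third layer 5b or first layer 6 array (-1.75 to -1.50). Cacng3 also lost it without layer 5a neurons (-1.34), and Cacna2d1 with probe sets averaged (-1.45). With control scaling alone the split was 2 higher and 10 lower, and with quantile normalization alone 6 and 7. The median over members was -0.56 with control scaling and -0.03 with quantile normalization, and over all genes -0.71 and -0.14.

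Mixed oligodendroglia, which include progenitors, were set against mature oligodendrocytes. In cortex 3 of 4 members were higher in mixed cells (25.7% of all genes), Cacng8 (4.99, SE 0.28, adjusted p = 1.47e-28), Cacng4 and Cacng5 (1.75), and Hcn2 was lower (7%). The call of Cacng5 was lost without the first array of cortical mature oligodendrocytes (1.53). In cerebellum 4 of 5 were higher (36%), Cacng4, Cacng7 (5.44), Cacng8 (5.07, SE 0.28, adjusted p = 2.86e-29) and Scn3b (2.30), and Hcn2 was lower (7.56%). The members tested are those above unbound RNA in a compared population. Without that requirement most calls went the other way: in cortex 3 of 22 members were higher and 8 lower in mixed cells, and in cerebellum 4 of 20 were higher and 12 lower. The lower ones then included Scn4b (-3.20 in cortex and -4.62 in cerebellum), Cacna1b (-1.90 and -2.99) and Scn8a (-1.63 and -2.78), and Cacng5 in cerebellum (-5.10). The change from mature to mixed cells itself differed between cortex and cerebellum in 5 of 7 members tested, where 30.3% of all genes were called in either direction. Mixed minus mature in cortex, minus the same in cerebellum, was positive for Cacng5 (6.86, SE 0.43, adjusted p = 9.28e-25). Cacng5 was higher in mixed cells in cortex and lower in them in cerebellum. The value was negative for Cacng7 (-5.53), Cacng4 (-3.04, SE 0.31, adjusted p = 3.52e-14), Scn3a (-1.81) and Scn3b (-1.80). Scn3a lay under 6 in both cerebellar populations. Cacng5 was at 7.24, 7.75 and 7.64 in cortical and 2.30, 2.36 and 2.30 in cerebellar mixed cells, and at 5.34, 6.07 and 5.95 in cortical and 7.06, 8.25 and 6.97 in cerebellar mature cells. The order of mixed and mature cells was therefore opposite in the 2 tissues.

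Bergmann glia and cerebellar astrocytes had no called difference among 6 members tested (limma), where 4.11% of all genes were higher and 5.42% lower in Bergmann glia. At an unadjusted p under 0.05, 3 members passed with control scaling (Cacna2d4, Cacng4 and Cacng8) and 1 with quantile normalization, all under the 2-fold limit. At an adjusted p under 0.05 the counts were also 3 and 1. Without the requirement of TRAP over unbound RNA, 3 of 13 members were higher in Bergmann glia, Cacng2 (4.18), Scn2a (2.45) and Cacnb4 (2.16), and none lower. Among the 6, Cacna2d4 came closest, with a difference of 0.99 (SE 0.16, adjusted p = 4.18e-07).

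Unbound cortex and cerebellum, the RNA left of each tissue after the pull-down, were compared last. Of 26 members 5 were higher in cortex (8.23% of all genes) and 2 lower (21.5%). Higher were Scn3a (5.38, SE 0.16, adjusted p = 1.61e-48), Scn3b (4.94, SE 0.16, adjusted p = 7.92e-45), Cacng3 (4.48), Cacnb1 (1.64) and Cacna2d1 (1.62). Lower were Cacng5 (-2.29, SE 0.19, adjusted p = 2.95e-19) and Cacna2d2 (-1.70). Arrays overlapped for Cacna2d1 and Cacna2d2. With control scaling alone 5 members were higher and 10 lower, and with quantile normalization alone 10 and 2. The median over members changed sign with the scaling, from -0.56 with control scaling to 0.14 with quantile normalization, while that over all genes was -0.93 and -0.16.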

How the data were processed

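RNA from 76 TRAP and 31 unbound preparations was hybridized to Affymetrix arrays of 45101 probe sets. Per the labels, 15 ng of total RNA was amplified in 2 cycles, and the authors deposited GCRMA intensity values on a linear scale, normalized within replicate groups; the GCRMA version is not given in the sources used here. The series text calls the replicates independent, so p-values measure the spread between preparations within groups, as far as the deposited values hold it. After GCRMA within groups, 2.7% to 64.9% of the members had the same value on every array of a group. That spread is hidden where values are the same, so p-values can be too small. The number of arrays limits the precision.

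Intensities were floored at 1 and taken to log2, and groups were shifted to a common level of 18 biotinylated control probe sets, whose group means lay between 10.13 and 12.00. Probe sets with 1 gene symbol numbered 34945, with several 932 and with none 9224. One limma fit (3.58.1, R 4.3.3, R package data.table, version 1.17.8) with a coefficient for each of 30 groups and eBayes with trend covered 12580 genes. The call rule is stated in the report. In 15 comparisons between populations or tissues each called member is named up to 8 in a direction, else the 8 largest. For TRAP against unbound RNA the 3 largest gains are named, and for glia also the 3 largest losses. Where several populations form a side, its mean weights them equally. A fold is a lower bound, written as at least, where the low side lies under 6 and was set to 6. The fit was tested on simulated data.

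Members and lists were chosen with earlier results of these data known. Same-numbered TRAP and unbound arrays of a line deviated together in all 6 pairs of brainstem and basal forebrain (r from 0.28 to 0.56), so the numbers pair samples there. In other tissues 7 of 21 pairs had r over 0.1 (-0.25 to 0.26). In spinal cord, whose unbound arrays are all of the same line, r was 0.06, -0.20 and -0.25. In cortex, cerebellum and striatum the unbound arrays of several lines share a mean, so r cannot show whether the numbers pair samples there. Alternatives are in the closing section.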

Additional observations from a re-analysis of the deposited data

Results flagged for a closer look

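In groups of 4 to 10 arrays, 13 of 88 member groups had an array far from the others by Dixon's criterion, which chance gives in about 1 in 20. The third unbound cerebellum array of the mature oligodendrocyte line stood apart in 5 members: Cacnb1 (6.15), Hcn2 (9.18), Hcn3 (5.80), Scn1a (12.83) and Scn2b (13.53). The first unbound cortex array of the Pnoc+ line stood apart in Cacna1a (6.97) and Cacna1d (8.87). Single arrays stood apart in Cacna2d2 in the fourth array of cortical astrocytes (7.21), Scn2a in the sixth Purkinje array (5.11), Cacna2d3 in the second unbound array of the Purkinje line (9.49), Cacng5 in the first unbound array of the Bergmann glia line (7.91), Hcn2 in the first unbound cortex array of the mature oligodendrocyte line (6.63) and Cacna2d2 in the first unbound striatum array of the Drd1+ line (9.27).

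The change from mature to mixed oligodendroglia differed between cortex and cerebellum, by a test of the difference itself (limma), in 5 members. The log2 differences of cortex minus cerebellum were 6.86 for Cacng5, -5.53 for Cacng7, -3.04 for Cacng4, -1.81 for Scn3a and -1.80 for Scn3b.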

How the results depend on the processing

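Counts are of called members, and the cause of a moved count was not tested. Over all alternatives together the pairs called higher than unbound RNA numbered 61 to 112 against 85. With control scaling alone, unbound cortex against cerebellum gave 15 instead of 7; with quantile normalization alone it gave 12, and layer 5b against layer 6 gave 2 instead of 1. With no further scaling, granule against unipolar brush gave 8 (5), medium spiny against deep layers 14 (8), striatal cholinergic against medium spiny 9 (17), Bergmann glia against astrocytes 1 (0), unbound cortex against cerebellum 11 and the difference between tissues of mixed minus mature oligodendroglia 8 (5). With no minimum level, granule against unipolar brush gave 9, Drd1+ against Drd2+ 2 (0) and Bergmann glia 2. With a minimum of 8, granule against unipolar brush gave 3, hindbrain against forebrain cholinergic 5 (8), mixed against mature oligodendroglia 2 in cortex (4) and 3 in cerebellum (5), and their difference 2. With the mean of all probe sets, Purkinje gave 8 (14), Golgi 3 (7), granule 3, striatal cholinergic 11, layer 5b against 6 gave 3, mixed against mature 2 in cortex and 3 in cerebellum, their difference 2, and the pairs called lower 153 (249). That setting reversed Scn2b in Golgi neurons (-0.51) and Cacna2d2 in striatal cholinergic neurons (-0.17), weakened 10 other member differences and kept 67. Without the requirement of TRAP over unbound RNA, Golgi gave 11, granule 15, hindbrain against forebrain 17, layer 5b against 6 gave 2, mixed against mature 11 in cortex and 16 in cerebellum, and Bergmann glia 3.

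Leaving out each of 79 arrays in turn gave 24 to 24 members for neurons against glia, 13 to 14 for Purkinje, 6 to 8 for Golgi, 5 to 6 for granule, 7 to 10 for medium spiny, 0 to 0 for Drd1+ against Drd2+, 15 to 18 for striatal cholinergic, 8 to 8 for hindbrain against forebrain, 1 to 1 for layer 5b against 6, 8 to 9 for Cort+, 3 to 4 and 5 to 5 for mixed against mature in cortex and cerebellum, 5 to 6 for their difference, 0 to 0 for Bergmann glia, and 83 to 87 and 247 to 251 for the pairs higher and lower. Arrays of groups larger than 5 were not left out: those of unbound cortex, cerebellum and striatum and of Purkinje neurons. Unbound cortex against cerebellum was therefore not run. The ranges for the pairs and for Purkinje neurons do not cover the loss of such an array. Of 114 called member differences, 2500 such refits kept the call and 15 lost it.

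With the replicate number as a block (replicate block) the pairs were 84 higher and 250 lower, and no comparison's count and none of the 114 differences lost its call. With the block in brainstem and basal forebrain alone, where the numbers pair samples, the pairs were 85 higher and 249 lower and no member's call changed in either tissue. That fit and the one with unbound arrays of a population's own line (45 gains instead of 52 and 133 losses instead of 139 in 14 populations) were chosen after seeing the data. Each Pcp2 line alone kept all 14 Purkinje differences. Without Cacng7, an alternative chosen after seeing the data, counts were 13 for Purkinje, 6 for Golgi, 4 for granule, 8 for Cort+, 4 for cerebellar mixed against mature oligodendroglia and 76 pairs higher. Signals near the GCRMA minimum limit low levels.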
